A study of Homo sapiens with 9 samples.

Results

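The collagen genes of LiSa-2 cells, a human liposarcoma line, were followed through treatment with hyaluronidase, an enzyme that cleaves the matrix polysaccharide hyaluronan. Members were the probe sets whose single gene symbol in the platform annotation had the form COL, a number, A and a number: 112 probe sets of 43 genes, among 41091 probe sets of 19775 genes with 1 symbol. They comprised 11 fibrillar, 6 basement membrane, 10 FACIT (fibril-associated collagens with interrupted triple helices) and 16 other collagen genes. Each gene was read from its brightest probe set, the one with the highest mean log2 value over all arrays, and further probe sets past the filter on probe sets are given beside it.

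The series compared 3 groups of 3 samples on Affymetrix U133 Plus 2.0 arrays, 1 array per sample, all from LiSa-2 cells grown in plates with bovine serum. One group received phosphate-buffered saline (PBS) and was taken at 24 h, and the others received bovine testicular hyaluronidase (HAase) at 400 µg/mL for 6 h or for 24 h. All groups thus shared the cell line and medium, none of the groups analysed here received an inactivated enzyme, and none received PBS for 6 h, so that treatment and harvest time cannot be told apart in the 6 h comparison. Nothing in the labels states that the 3 samples of a treatment came from separate cultures, so p-values speak only of the spread among these arrays, which may be technical.

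Collagens are built from 3 chains wound into a triple helix, and each chain has its own gene. Fibrillar collagens such as types I, III and V assemble side by side into the fibrils that carry tension in connective tissue, FACIT collagens sit on the surface of those fibrils, and type IV forms the sheet of the basement membrane on which epithelial, endothelial and fat cells rest. Type VI makes beaded filaments close to the cell surface and is abundant around fat cells, and types XV and XVIII (the multiplexins) carry glycosaminoglycan chains and link basement membranes to the surrounding tissue.

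Arrays of 1 group correlated at r = 0.989 or more across genes, and arrays of different groups at 0.974 or less. MDM2 and CDK4 lie in the 12q region that is amplified in many liposarcomas. Both genes, vimentin (VIM) and periostin (POSTN) lay above the level of the bacterial control probe sets on all 9 arrays. They belong to lists of which 6 genes of 12q and 9 fibroblast markers were measured, and none of these lay within that level on every array. Of 8 epithelial markers, EPCAM, CDH1, KRT19 and CLDN7 lay within that level on every array. So did CDH5, TEK, CLDN5 and EMCN of 7 endothelial markers and PTPRC and LYZ of 6 leukocyte markers measured. Each other marker measured from these lists lay above it on at least 1 array. Of 10 adipocyte markers, 9 were tested, 9 were lower at 24 h and 7 at 6 h, and LEP lay within the control level on every array. Their summed signal was 58074 to 60291 in PBS, 45331 to 47612 at 6 h and 29062 to 33708 at 24 h. Of 9 fibroblast markers measured, 8 were tested: 1 (FAP) was higher and 3 were lower at 24 h, lumican (LUM) and decorin (DCN) among them. Among all genes tested, 17.5% were higher and 22.8% lower at 24 h, and 15.0% and 27.4% at 6 h. Of the epithelial, endothelial, leukocyte and smooth muscle markers tested, KRT14 and ACTG2 were lower and PECAM1 and LCP1 higher at 24 h, and of 3 chondrocyte markers tested SOX9 and MATN3 were higher, the summed signal of that list going from 214 to 289 in PBS to 403 to 456 at 24 h. The log2 ratio of the 3′ to the 5′ GAPDH control probe set was -0.02 to 0.04 in PBS, -0.06 to 0.04 at 6 h and -0.21 to -0.02 at 24 h. That of ACTB was 1.56 to 1.69 in PBS, 1.14 to 1.5 at 6 h and 1.38 to 1.61 at 24 h, so that the 6 h arrays lay below all PBS arrays. The part of these markers or of RNA quality in the collagen values was not tested.

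Values are signals in arbitrary units, scaled by the authors to an equal trimmed mean per array. Fold changes come from a limma fit to log2(signal + 16), and a gene was called at an adjusted p under 0.05 (Benjamini-Hochberg over all 13842 genes tested). Of the 43 collagen genes, 28 passed the filter on dim genes (a mean signal of about 32.2) and were tested, and 21 had all 9 arrays above the brightest bacterial control probe set, whose level ran from 34.2 to 65.0 between arrays. The 28 comprised 8 of 11 fibrillar, 5 of 6 basement membrane, 6 of 10 FACIT and 9 of 16 other genes.

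At 24 h, 10 collagen genes were higher and 5 were lower than in PBS. The genes of the interstitial fibril, COL1A1, COL1A2 and COL3A1, fell together with the FACIT genes COL12A1 and COL14A1, while COL4A1, COL4A2 and COL4A4 of type IV, COL6A1, COL6A2 and COL6A3 of type VI, the multiplexin genes COL15A1 and COL18A1 and the fibrillar genes COL5A3 and COL11A2 rose. The share called, 15 of 28, stood beside 40.3% of all genes tested (17.5% higher and 22.8% lower). By fitted values of 2-fold or more, 2 collagen genes were higher and 4 lower, where 4.0% and 4.25% of all genes were. One of the 4, COL14A1, is bounded only at 1.64-fold, because its 24 h arrays lay within the control level. For 18 of the 28 the 24 h and PBS arrays were fully apart, as they were for 52.0% of all genes. The median log2 fold change was 0.32 over the collagen genes and -0.03 over all genes. At 6 h, 10 were higher and 3 lower, beside 42.4% of all genes called in either direction (15.0% higher and 27.4% lower), and for 16 the arrays were fully apart, against 54.2%. By fitted values of 2-fold or more, 3 were higher and none lower, where 3.38% and 3.22% of all genes were. With equal array medians 1 gene rather than 3 was lower at 6 h. The 6 h median was 0.28, where that of all genes was -0.08. Both comparisons use the same PBS arrays.

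**Figure D1:**
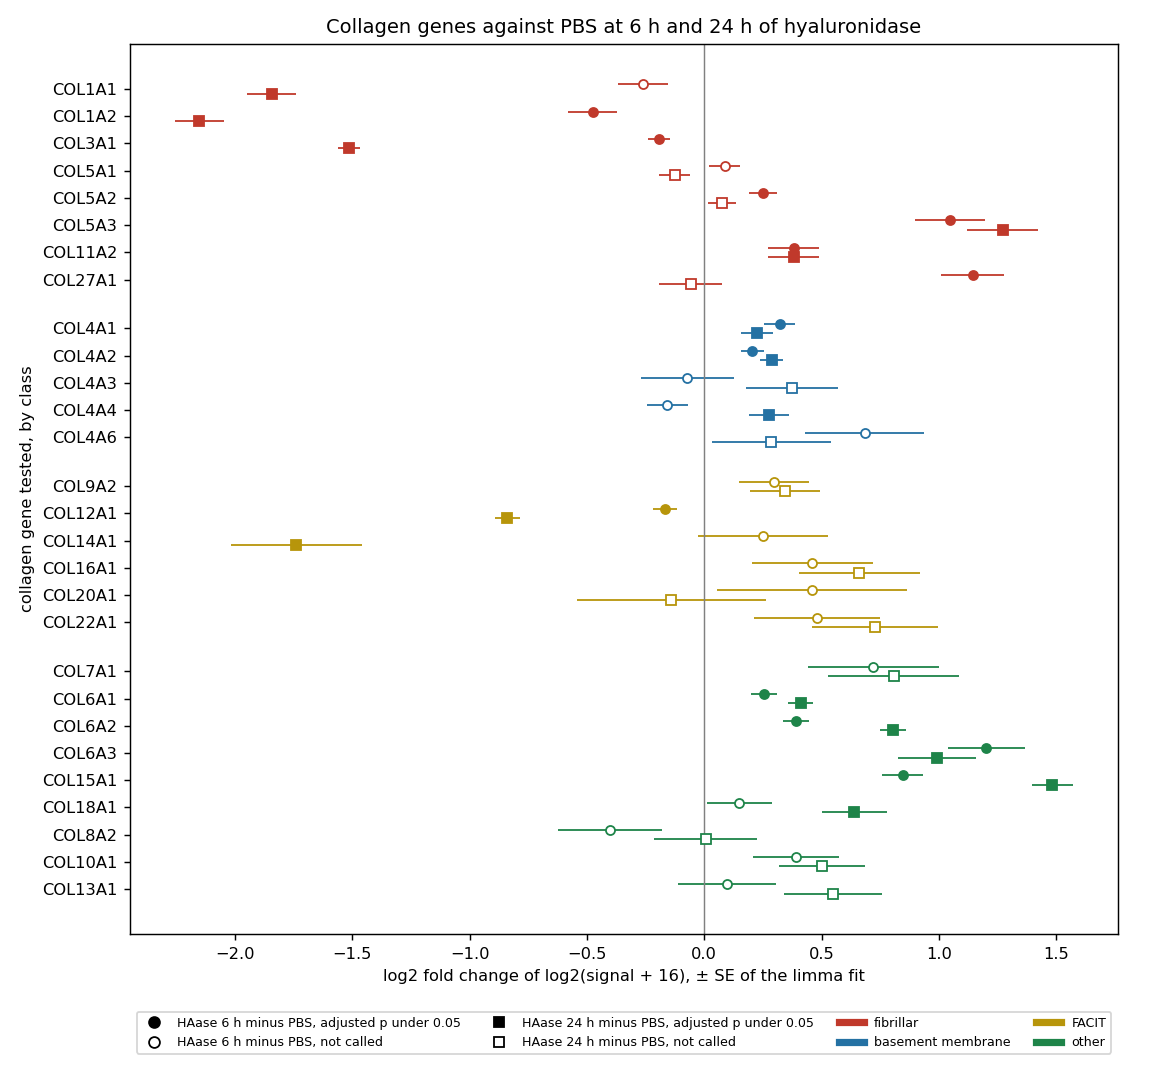
Log2 fold change (horizontal axis, on the log2(signal + 16) scale, ± SE of the limma fit) of the 28 collagen genes tested, grouped by class, at 6 h (circles) and 24 h (squares) of hyaluronidase against PBS, n = 3 arrays per group. Filled symbols have an adjusted p under 0.05. COL1A1, COL1A2, COL3A1, COL12A1 and COL14A1 lie left of 0 at 24 h, COL14A1 at its fitted value, and at 24 h all 9 genes of the class named other lie at or right of 0.

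Types I and III showed the largest falls among the fibrillar genes at 24 h, and by their brightest probe sets most of the fall came after 6 h. COL1A1 encodes the more numerous chain of type I collagen, the main protein of bone, skin and tendon. Its signal was 1338, 1191 and 1212 on the PBS arrays, 894, 1072 and 1159.6 at 6 h and 306, 357 and 344 at 24 h. No 24 h array reached any other array, and the 6 h arrays lay just under the PBS arrays. The log2 fold change was -1.84 ± 0.11 (SE) at 24 h, 3.59-fold lower (adjusted p = 5.27e-06), and -0.26 ± 0.11 at 6 h, which did not pass the test (adjusted p = 0.0838), though it passed without 6 h replicate 3 (0.0445, in a range over its alternatives of 0.0445 to 0.625). Fewer cells of a kind and less RNA per cell cannot be told apart in such bulk samples.

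COL1A2, the partner chain in the type I helix, had signals of 1917, 2205 and 1960.2 in PBS, 1493, 1373 and 1487 at 6 h and 387, 438 and 511 at 24 h. The groups formed separate steps with no overlap. It fell by 0.48 ± 0.10 (SE) on the log2 scale at 6 h (adjusted p = 0.00755) and fell by 2.15 ± 0.10 at 24 h (adjusted p = 2.03e-06), 4.45-fold.

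COL3A1, whose product forms fibrils with type I in skin, vessels and fat, gave 17717, 17986 and 18593 in PBS, 15872, 15978 and 15626 at 6 h and 6211, 6581 and 6189.9 at 24 h. The spread within each group was small beside the steps between them. The log2 fold change was -0.19 ± 0.05 at 6 h (adjusted p = 0.0138) and -1.51 ± 0.05 at 24 h (2.86-fold lower, adjusted p = 2.55e-07). The 6 h call was lost when the arrays were set to equal medians (adjusted p = 0.0646, the highest of its settings).

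**Figure D2:**
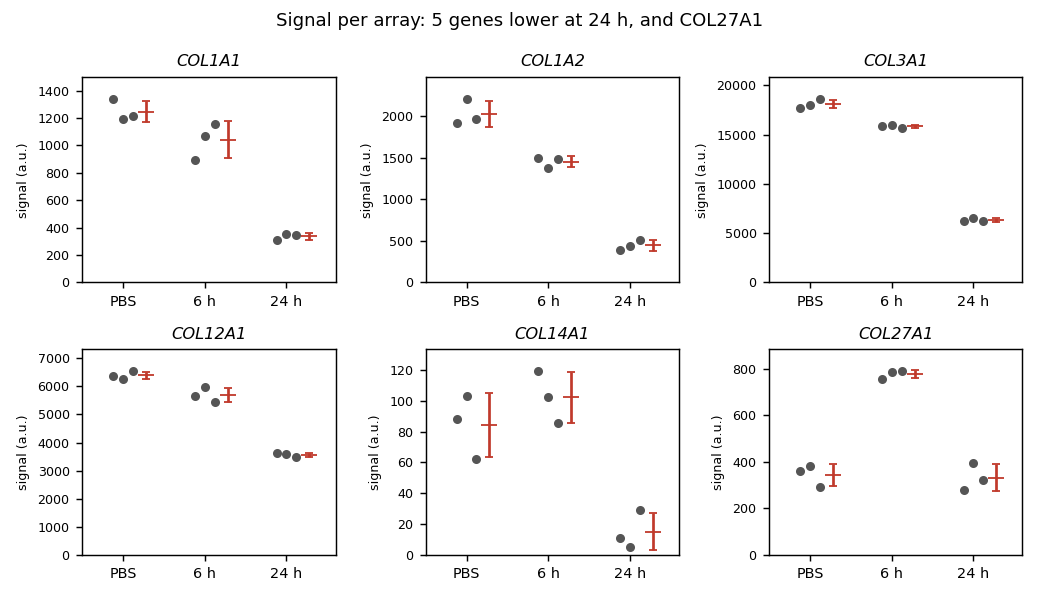
Signal in arbitrary units (vertical axes, from 0) on each of the 3 arrays of PBS, 6 h and 24 h of hyaluronidase for the 5 collagen genes that were lower at 24 h and for COL27A1; red marks give the mean ± SD (n = 3). COL1A1, COL1A2, COL3A1 and COL12A1 are lowest at 24 h, COL14A1 lies within the control level there, and COL27A1 is high at 6 h alone.

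The probe sets of these genes moved mostly the same way. In a fit over 28764 probe sets, all 4 COL3A1 probe sets past the filter fell at 24 h, with log2 fold changes of -3.45 to -1.51, and all 4 fell at 6 h. The dimmest of them, 232458_at, went from 258, 293 and 254 in PBS to 58.5, 50.1 and 39.4 at 6 h and 22.2, 6.33 and 4.39 at 24 h, where every array lay within the control level, so that its fall at 24 h was at least 4.71-fold. For COL1A2, 2 of 3 probe sets were lower at 24 h, the second, 202403_s_at, by a log2 fold change of -1.35. The remaining one, 229218_at, ran otherwise: it was lower at 6 h (-1.76, adjusted p = 0.0139) and not called at 24 h (-1.02, adjusted p = 0.103), with 1 of 3 arrays above the control level at 6 h.

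COL1A1 was the only collagen gene with probe sets called in opposite directions at 24 h. Of its 5 probe sets, 3 were lower at 24 h: 1556499_s_at, the brightest, fell by 1.84, 202310_s_at fell by 1.33 and 202311_s_at fell by 0.86 on the log2 scale, the last to within the control level, at least 1.41-fold. The next, 217430_x_at, had a log2 fold change of -0.22 (adjusted p = 0.412). The dimmest, 202312_s_at, rose by 0.97 ± 0.28 (adjusted p = 0.0327), with signals of 47.5, 22.7 and 18.1 in PBS and 77.8, 80.0 and 54.5 at 24 h. Only 1 of its 3 PBS arrays lay above the control level. At 6 h, 202311_s_at alone of the COL1A1 probe sets was called, as lower (-0.39, adjusted p = 0.0375 over all probe sets).

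**Figure D3:**
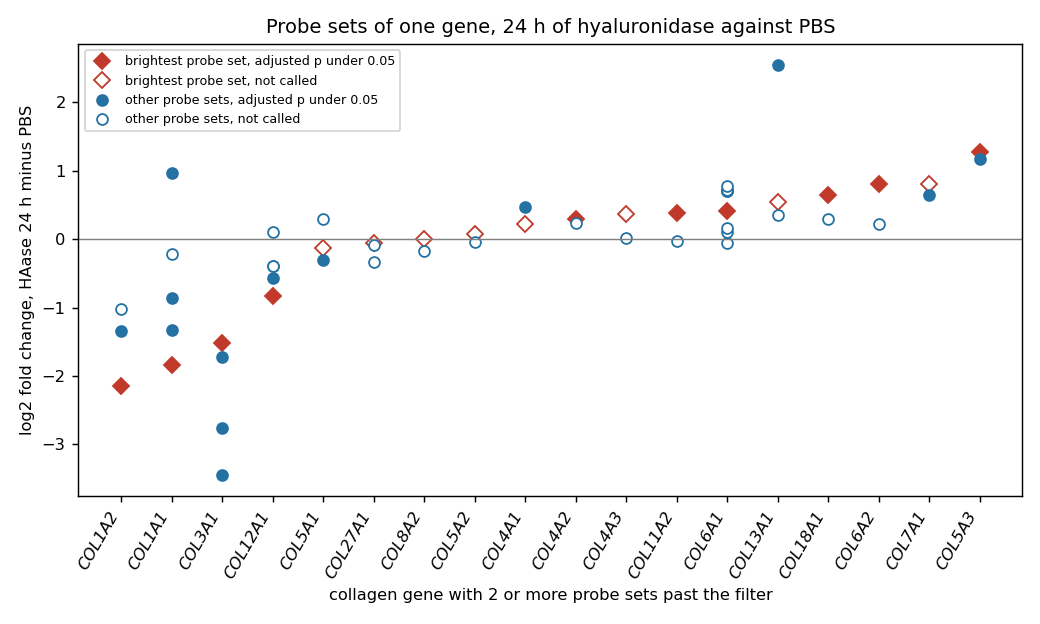
Log2 fold change at 24 h of hyaluronidase against PBS (vertical axis) for each probe set past the probe set filter, for collagen genes with 2 or more such probe sets, ordered by the brightest (diamonds); filled symbols have an adjusted p under 0.05 in the fit over 28764 probe sets. The COL3A1 and COL1A2 probe sets all lie below 0, 1 COL1A1 probe set lies at 0.97, and the COL13A1 probe set at 2.55 lies far above the brightest one of that gene.

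Of the minor fibrillar genes, COL5A3 and COL11A2 rose at both times, COL5A2 and COL27A1 rose at 6 h, and COL5A1 was called at neither time. Type V collagen is co-assembled with type I and sets the diameter of its fibrils. COL5A1 gave 2374, 2347 and 2144 in PBS, 2338, 2388 and 2564 at 6 h and 2026, 2202 and 2053 at 24 h, with overlapping arrays and log2 fold changes of 0.09 ± 0.07 and -0.13 ± 0.07 that did not pass the test (adjusted p = 0.334 and 0.167). Of its other probe sets, 203325_s_at leaned up at 6 h and 24 h (0.37 and 0.30, adjusted p = 0.0745 and 0.138) and 212489_at was lower at 24 h (-0.31, adjusted p = 0.0153). With the mean of its probe sets COL5A1 passed as higher at 6 h (0.21, adjusted p = 0.0372, in a range over its alternatives of 0.0372 to 0.681). COL5A2 gave 15742, 14256 and 14626 in PBS, 17191, 18374 and 17526 at 6 h and 16021, 16059 and 14972 at 24 h. The 6 h arrays lay above all others. It rose at 6 h (0.25 ± 0.06, adjusted p = 0.0111) and was not called at 24 h (0.08 ± 0.06, adjusted p = 0.355). COL5A2 is the gene next to COL3A1 on the chromosome, and at 24 h the neighbours had log2 fold changes of 0.08 and -1.51.

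COL5A3, the third type V chain, was the fibrillar gene that rose most at 24 h. Its signal was 144, 133 and 96.1 in PBS, 232, 277 and 309 at 6 h and 296, 331 and 332 at 24 h. Every treated array lay above every PBS array. The log2 fold changes were 1.05 ± 0.15 at 6 h (2.06-fold, adjusted p = 0.000943) and 1.27 ± 0.15 at 24 h (2.41-fold, adjusted p = 0.000305), and its second probe set, 218975_at, was also called at both times (1.08 and 1.17). The 250 bases before its annotated start (RefSeq, GRCh38.p14, chr19:10010505-10010754, minus strand) are shown because it rose while the type I genes fell, with matches to motifs of common promoter elements in capitals.
COL5A3 upstream window: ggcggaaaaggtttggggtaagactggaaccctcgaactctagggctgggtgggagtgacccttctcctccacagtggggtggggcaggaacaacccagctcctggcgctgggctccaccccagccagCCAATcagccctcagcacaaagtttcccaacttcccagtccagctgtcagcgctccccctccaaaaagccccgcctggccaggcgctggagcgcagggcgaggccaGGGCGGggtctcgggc
The motifs searched on both strands were CCAAT, the GC box GGGCGG, the AP-1 motif TGANTCA and TATAAA. This window of 66% GC held 1 CCAAT and 1 GGGCGG, which do not overlap, and neither of the others. Among 35116 windows of 250 bases in the same table, 32% held CCAAT, 42.6% GGGCGG, 6.57% TGANTCA and 10.7% TATAAA.

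COL11A2, a type XI chain best known from cartilage, was 113, 98.6 and 124 in PBS, 153, 138 and 159.9 at 6 h and 145, 135 and 173 at 24 h. The treated arrays lay above the PBS arrays, by a small margin. It rose at both times (0.38 ± 0.11 and 0.38 ± 0.11; adjusted p = 0.0231 and 0.0238).  The 24 h call was lost without PBS replicate 1 (adjusted p = 0.0554), without PBS replicate 2 (0.0762) or without 24 h replicate 3 (0.0659), and over all settings its adjusted p ran up to 0.201, the value for the mean of its probe sets. The 6 h call was lost without PBS replicate 1 or 2 (0.0538 and 0.0748) or 6 h replicate 1 or 3 (0.0629 and 0.0732), the highest value being 0.0748.

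COL27A1, which encodes a fibrillar chain of cartilage, was the clearest transient. It gave 361, 381 and 292 in PBS, 757, 785 and 788 at 6 h and 279.8, 393 and 321 at 24 h. The 6 h arrays stood alone, and the 24 h and PBS arrays overlapped. The log2 fold change was 1.14 ± 0.13 at 6 h (2.21-fold, adjusted p = 0.000326), -0.06 ± 0.13 at 24 h (adjusted p = 0.768) and -1.20 ± 0.13 between the times (adjusted p = 0.000374). All 3 probe sets of COL27A1 past the filter rose at 6 h, by 1.14, 1.09 and 0.76, and none was called at 24 h.

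The type IV genes of the basement membrane rose modestly or were not called. COL4A1 and COL4A2 encode the chains of the common type IV helix, lie head to head and are known to share a bidirectional promoter. COL4A1 gave 16789.8, 16190.1 and 17490.3 in PBS, 21326, 21607 and 20147 at 6 h and 20289, 20610.1 and 18140.2 at 24 h. COL4A2 gave 8104, 8361 and 7997 in PBS, 9229, 9457 and 9502 at 6 h and 10231, 10121 and 9529.7 at 24 h. For both genes every treated array lay above every PBS array.

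COL4A1 rose by 0.32 ± 0.07 at 6 h (adjusted p = 0.00575) and by 0.22 ± 0.07 at 24 h (adjusted p = 0.0285), and COL4A2 by 0.20 ± 0.05 and 0.29 ± 0.05 (adjusted p = 0.0119 and 0.00232), on the log2 scale. The 24 h call of COL4A1 was lost without PBS replicate 1 or 2 (adjusted p = 0.0717 and 0.0906) and without 24 h replicate 1 or 2 (0.0861 and 0.0886), the highest over its settings being 0.0906, and in the fit over probe sets it was 0.0524. The second COL4A1 probe set, 211981_at, rose by 0.65 at 6 h and by 0.47 at 24 h (adjusted p = 0.0018 and 0.00776). The 6 h call of COL4A2 was lost under quantile normalization (adjusted p = 0.0667, the highest of its settings).

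The whole interval between the annotated starts of this pair (chr13:110307158-110307283, RefSeq, GRCh38.p14, 126 bases) is shown because both genes are transcribed away from it. Both were called higher than PBS at each time. Between 24 h and 6 h, COL4A1 had a log2 difference of -0.10 and COL4A2 of 0.08, neither called. The part of this interval in those values was not tested. It is written on the plus strand, which reads toward COL4A2.
COL4A1 and COL4A2 shared interval: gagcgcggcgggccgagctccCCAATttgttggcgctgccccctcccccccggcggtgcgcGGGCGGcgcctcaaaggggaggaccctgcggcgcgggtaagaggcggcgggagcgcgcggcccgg
It holds 80.2% GC, 1 CCAAT and 1 GGGCGG (capitals, not overlapping), and no match to the others. Of 35116 windows of 126 bases, 21.1% held CCAAT, 34.6% GGGCGG, 3.5% TGANTCA and 5.87% TATAAA.

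COL4A3 and COL4A4, likewise a head-to-head pair, encode chains of the type IV network of kidney and inner ear. COL4A4 gave 303, 352 and 370.0 in PBS, 296, 287 and 329 at 6 h and 396, 426 and 425 at 24 h. The 24 h arrays lay above the rest, and those of PBS and 6 h overlapped. It rose at 24 h (0.28 ± 0.09, adjusted p = 0.0352) and not at 6 h (-0.16 ± 0.09, 0.185). The 24 h call was lost without PBS replicate 1 or 2 (adjusted p = 0.0956 and 0.0617), 24 h replicate 2 or 3 (0.0942 and 0.0905) or 6 h replicate 1 (0.0515), and with the mean of its probe sets (0.515, the highest of its settings). It was also lost with no filter (0.0649), with equal array medians (0.096) and with only the 2 groups compared in the fit (0.0552). In the fit over probe sets the adjusted p was 0.0555. COL4A3 was measured near the control level, with log2 fold changes of -0.07 and 0.37 at 6 h and 24 h (adjusted p = 0.801 and 0.177). COL4A6 had 0.68 and 0.28 (adjusted p = 0.0632 and 0.421) and lay above control on 3 of the 9 arrays. Its 24 h signal turned on replicate 2, without which both comparisons passed (adjusted p = 0.00417 at 6 h, in a range over its alternatives of 0.00417 to 0.148, and 0.0128 at 24 h, in a range of 0.0128 to 0.597). COL4A6 lay just above the filter (mean signal 32.5) and was tested in only 13 of the 21 alternatives, which these ranges cover.

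Of 6 FACIT genes tested, 2 were lower at 24 h and none was higher, beside 22.8% and 17.5% of all genes. COL12A1, whose product binds type I fibrils in tendon and tumour stroma, gave 6357, 6279.6 and 6531 in PBS, 5642, 5966 and 5461 at 6 h and 3614, 3597 and 3484 at 24 h. The groups did not overlap at any step. It fell by 0.84 ± 0.05 (SE) on the log2 scale at 24 h (1.79-fold, adjusted p = 7.42e-06) and fell by 0.17 ± 0.05 at 6 h (adjusted p = 0.0318). Of its 5 probe sets, 3 were lower at 24 h and none was called at 6 h in the fit over probe sets. The 6 h call did not hold without PBS replicate 1, 2 or 3 (adjusted p = 0.0732, 0.0603 and 0.0911) or 6 h replicate 1 or 3 (0.0818 and 0.101), and reached 0.695 with the mean of its probe sets, the highest of its settings.

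The 250 bases before the annotated start of COL12A1 (chr6:75206054-75206303, minus strand, RefSeq, GRCh38.p14) are shown as those of a gene that fell.
COL12A1 upstream window: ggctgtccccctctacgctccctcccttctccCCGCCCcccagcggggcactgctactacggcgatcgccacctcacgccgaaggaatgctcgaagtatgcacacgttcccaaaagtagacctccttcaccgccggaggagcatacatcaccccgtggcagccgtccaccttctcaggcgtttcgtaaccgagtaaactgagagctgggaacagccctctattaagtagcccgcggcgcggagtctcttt
The window holds 61.2% GC and 1 GC box, which reads CCGCCC here because it lies on the other strand, with no match to the other motifs. A match to GGGCGG on either strand is thus present both in this window and in those of the genes that rose.

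COL14A1, another FACIT gene whose product binds fibrils, gave 88.1, 103 and 62.0 in PBS, 119, 102 and 85.7 at 6 h and 11.1, 5.34 and 28.9 at 24 h. The 24 h arrays all lay within the control level, and 2 of the 3 PBS arrays lay above it. It was therefore at least 1.64-fold lower at 24 h, with a fitted log2 fold change of -1.74 ± 0.28 (adjusted p = 0.00158), and was not called at 6 h (0.25, adjusted p = 0.517). The remaining FACIT genes tested were COL9A2, COL16A1, COL20A1 and COL22A1, with log2 fold changes at 24 h of 0.34, 0.66, -0.14 and 0.73 and adjusted p of 0.106, 0.0773, 0.819 and 0.0641. Single arrays decided several of these: COL9A2 passed without 24 h replicate 2 (adjusted p = 0.0329), COL16A1 without PBS replicate 2 (0.035) and COL22A1 without PBS replicate 3 (0.0359). Over all alternatives their adjusted p ran from 0.0329 to 0.286, 0.035 to 0.189 and 0.0359 to 0.587.

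All 3 type VI genes tested, COL6A1, COL6A2 and COL6A3, rose at both times. They encode the chains of the standard type VI microfibril. COL6A1 gave 13466, 14038 and 13264 in PBS, 16766, 16034 and 15833 at 6 h and 17329.8, 18853 and 18051 at 24 h. COL6A2 gave 3309, 3112 and 3344 in PBS, 4490.4, 4183 and 4155 at 6 h and 5669, 5837 and 5595 at 24 h. The arrays of these neighbouring genes rose in steps without overlap. COL6A3, encoding the largest chain, gave 436, 427 and 333 in PBS, 893, 966 and 937 at 6 h and 686, 1042 and 724 at 24 h. Its treated arrays lay above all PBS arrays, and those of the 6 h and 24 h groups overlapped.

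At 24 h the log2 fold changes were 0.41 ± 0.05 for COL6A1 (adjusted p = 0.000556), 0.81 ± 0.05 for COL6A2 (1.35e-05) and 0.99 ± 0.17 for COL6A3 (0.00199). At 6 h they were 0.25 ± 0.05 (0.00657), 0.39 ± 0.05 (0.000842) and 1.20 ± 0.17 (0.000767) in the same order. COL6A3, with 1 probe set, was 2.3-fold higher at 6 h. Of the 8 probe sets of COL6A1, 3 were called higher at 24 h and 2 at 6 h, and none lower. The 6 h call of COL6A1 was lost with the mean of its 8 probe sets (adjusted p = 0.106, the highest of its settings).

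**Figure D4:**
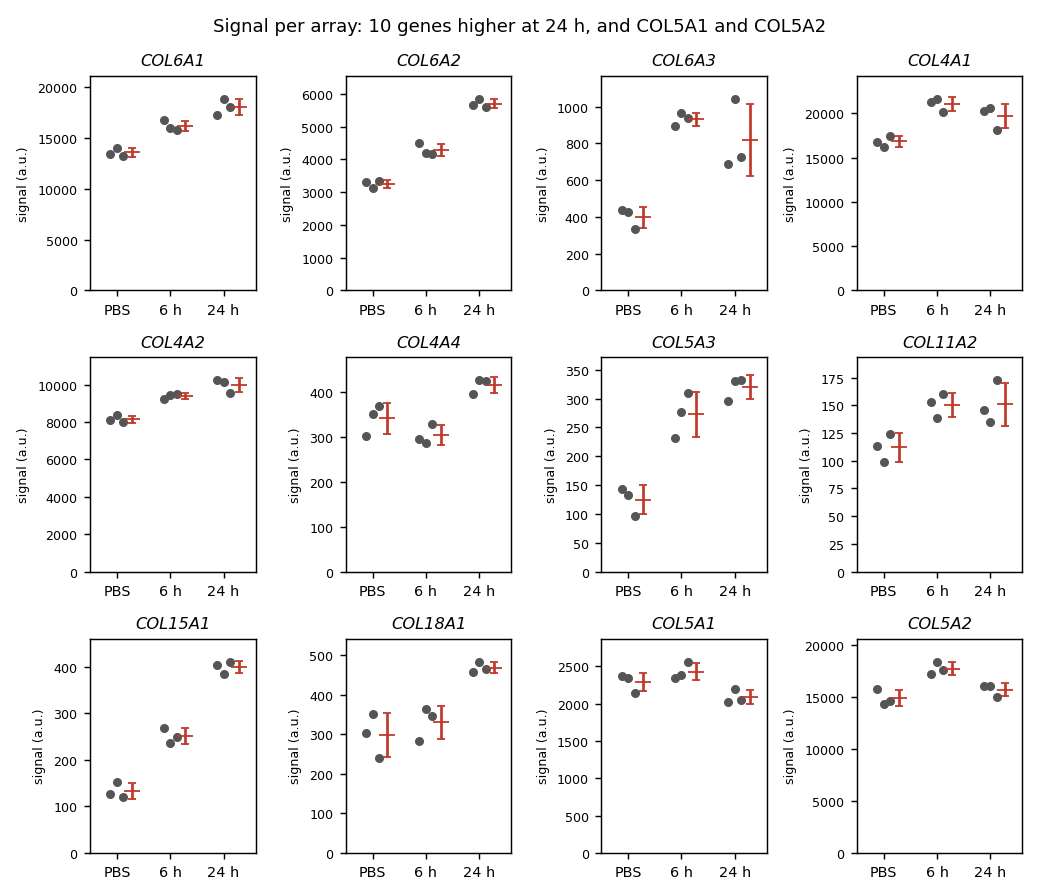
Signal in arbitrary units (vertical axes, from 0) on each of the 3 arrays of PBS, 6 h and 24 h of hyaluronidase for the 10 collagen genes that were higher at 24 h and for COL5A1 and COL5A2; red marks give the mean ± SD (n = 3). COL6A2 and COL15A1 rise from group to group, COL6A3 and COL5A3 are higher at both treated times, COL4A4 and COL18A1 are higher at 24 h alone, and the COL5A1 arrays overlap between groups.

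Both multiplexin genes rose at 24 h. COL15A1, whose product bridges fibrils and basement membrane, gave 128, 152 and 120.3 in PBS, 269, 236 and 249 at 6 h and 404, 385 and 412 at 24 h. The groups stood apart at each step. It rose by 0.85 ± 0.09 at 6 h (1.8-fold, adjusted p = 0.000178) and by 1.48 ± 0.09 at 24 h (2.8-fold, adjusted p = 6.23e-06). COL18A1, the precursor of the fragment endostatin, gave 303, 350.3 and 240.1 in PBS, 283, 363 and 345 at 6 h and 456, 483 and 464 at 24 h. Its 24 h arrays lay above all others. It rose at 24 h (0.64 ± 0.14, adjusted p = 0.0072), and its 6 h difference was 0.15 ± 0.14 (0.431).

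The 250 bases before the annotated start of COL15A1 (chr9:98943657-98943906, plus strand, RefSeq, GRCh38.p14) are shown because this gene rose at each step.
COL15A1 upstream window: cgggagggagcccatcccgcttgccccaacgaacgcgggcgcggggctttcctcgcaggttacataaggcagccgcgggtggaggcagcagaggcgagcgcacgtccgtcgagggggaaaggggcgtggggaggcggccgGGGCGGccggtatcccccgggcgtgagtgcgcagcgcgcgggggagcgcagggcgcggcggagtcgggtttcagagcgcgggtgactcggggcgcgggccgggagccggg
The window holds 76.8% GC and 1 GGGCGG (capitals), with no match to the other motifs. Of the 43 collagen genes, 31 had a window in the table used here, and COL1A1, COL1A2 and COL3A1 were not among them.

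The anchoring fibril gene COL7A1, which fastens skin basement membrane to the dermis, did not pass the test with its brightest probe set, although both of its probe sets leaned the same way. Its signal was 117, 71.4 and 93.6 in PBS, 167, 192 and 133 at 6 h and 192, 109 and 245 at 24 h. The 24 h arrays spread widely and 1 of them lay among the PBS arrays. The log2 fold changes were 0.72 ± 0.28 at 6 h (adjusted p = 0.0723) and 0.81 ± 0.28 at 24 h (0.051). The second probe set, 217312_s_at, was called at both times (0.46 and 0.64, adjusted p = 0.0456 and 0.0122). Without the array of 24 h replicate 2, the brightest one passed at both times (adjusted p = 0.0225 at 6 h and 0.00715 at 24 h), and over all alternatives its adjusted p ran from 0.0125 to 0.201 at 6 h and 0.00479 to 0.15 at 24 h.

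COL13A1, a transmembrane collagen of cell junctions, depended on the probe set chosen. Its main probe set, 211809_x_at, gave 57.5, 53.1 and 28.5 in PBS and 77.7, 56.6 and 88.5 at 24 h, a log2 fold change of 0.55 ± 0.21 that was not called (adjusted p = 0.0708). With this probe set it passed without 24 h replicate 2 (adjusted p = 0.043, in a range over the gene's alternatives of 3.08e-06 to 0.194). Another probe set, 211343_s_at, gave 17.1, 13.6 and 13.9 in PBS, 22.1, 34.1 and 21.4 at 6 h and 160.1, 191 and 147 at 24 h. Its PBS and 6 h arrays lay within the control level and its 24 h arrays well above it, at least 2.79-fold higher than PBS and at least 3.29-fold higher than 6 h (adjusted p = 6.14e-06 and 5.06e-05 over all probe sets). This was the probe set chosen when genes were read by the highest linear mean or without probe sets marked _x_at.

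The short-chain genes COL8A2 and COL10A1 were not called. COL8A2 had log2 fold changes of -0.40 at 6 h and 0.01 at 24 h (adjusted p = 0.185 and 0.989), and without PBS replicate 3 it passed as lower at 6 h (-0.63, adjusted p = 0.0299, in a range over its alternatives of 0.0299 to 0.432). COL10A1, a marker of hypertrophic cartilage, had 0.39 and 0.50 (adjusted p = 0.123 and 0.0605), from a PBS level within control. Without 6 h replicate 1 it passed at both times (adjusted p = 0.0134 at 6 h and 0.015 at 24 h), and without 6 h replicate 2 at 24 h (0.0339), in ranges over its alternatives of 0.0134 to 0.333 and 0.0143 to 0.164.

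The 15 collagen genes below the filter were COL2A1, COL11A1, COL24A1, COL4A5, COL9A1, COL9A3, COL19A1, COL21A1, COL6A5, COL6A6, COL26A1, COL28A1, COL8A1, COL23A1 and COL25A1. Their signals ran from 0.775 to 66.4, and for 9 of them no array lay above the control level. They include the cartilage chains COL2A1, COL11A1, COL9A1 and COL9A3. Of their probe sets, those of COL21A1 and COL8A1 passed the filter set on probe sets. COL21A1, a FACIT gene, gave 14.7, 25.1 and 7.46 in PBS, 54.6, 49.96 and 45.1 at 6 h and 25.5, 28.9 and 11.2 at 24 h. Only its 6 h arrays lay above the control level, at least 1.01-fold above PBS (adjusted p = 0.0114 over all probe sets). COL8A1, a short-chain gene of vessel walls, gave 13.6, 22.5 and 24.9 in PBS and 49.0, 56.0 and 39.4 at 24 h. It was called higher at 24 h (adjusted p = 0.0398 over all probe sets), with 2 of 3 arrays above control there and none in PBS, and no fold above the control level can be given.

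Over all 66 collagen probe sets past the filter on probe sets, 16 were higher and 14 lower at 24 h, or 45.5%, where 30.3% of all probe sets were called. At 6 h, 19 were higher and 7 lower, 39.4% beside 30.3%. Between 24 h and 6 h, 8 were higher and 19 lower, 40.9% beside 22.1%. Several second probe sets of genes called by their brightest one did not pass at 24 h: 213290_at of COL6A2 (0.22, adjusted p = 0.342), 209081_s_at of COL18A1 (0.30, 0.0666), 211966_at of COL4A2 (0.24, 0.24) and 213870_at of COL11A2 (-0.03, 0.944). The second COL5A2 probe set, 221730_at, rose at 6 h like the first (0.27, adjusted p = 0.0135) and was lower at 24 h than at 6 h (-0.31, 0.00931). Those of COL4A3 (216368_s_at) and COL8A2 (221900_at) and the third of COL13A1 (208535_x_at) were called in no comparison. By direction, the shares of all probe sets were 13.2% higher and 17.1% lower at 24 h, 11.9% and 18.4% at 6 h, and 12% and 10.1% between the times.

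Counts and medians per class at 24 h are given here, where 17.5% of all genes tested were higher and 22.8% lower. Of the fibrillar genes tested, 2 were higher and 3 lower of 8, with a median log2 fold change of -0.09 and a range from -2.15 to 1.27. Of the basement membrane genes, 3 were higher and none lower of 5, with a median of 0.28 and a range from 0.22 to 0.37. FACIT genes counted none higher and 2 lower of 6, with a median of 0.10, and the other genes 5 higher and none lower of 9, with a median of 0.64. Members of a class are not replicates, and the difference between the classes was not tested. These medians kept their sign under quantile normalization and equal array medians, which are the scalings tried, and the FACIT median turned on the filter, being -0.84 when genes below the 50th percentile were left out. It also changed sign with single arrays, being -0.17 without PBS replicate 2 and 0.30 without PBS replicate 1.

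At 6 h, 15.0% of all genes tested were higher and 27.4% lower. The fibrillar class then had 4 genes higher and 2 lower of 8, with a median of 0.17. Those higher were COL5A2, COL5A3, COL11A2 and COL27A1. The basement membrane class had 2 higher of 5 and a median of 0.20, the FACIT class 1 lower of 6 and a median of 0.38 (-0.17 with the 50th percentile filter), and the other genes 4 higher of 9 and a median of 0.39. With no filter on dim genes the fibrillar median at 6 h was -0.11.

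Between 24 h and 6 h of hyaluronidase, a difference that does not use the PBS means, 4 collagen genes were higher and 7 lower, beside 33.0% of all genes called in either direction (19.7% higher and 13.3% lower). By fitted values of 2-fold or more none was higher and 5 were lower, where 1.71% and 2.32% of all genes were. The arrays of 17 of the 28 did not overlap, against 45.9%. The 5 were COL14A1, for which the control level allows only at least 1.95-fold, COL1A2 (-1.68 ± 0.10, adjusted p = 2.16e-05), COL1A1 (-1.58 ± 0.11, 3.06e-05), COL3A1 (-1.32 ± 0.05, 2.18e-06) and COL27A1. COL12A1 (-0.67) and COL5A1 (-0.21, adjusted p = 0.0391) were also lower. Of the 7, 5 were fibrillar and the others were FACIT genes.

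The genes higher at 24 h than at 6 h were COL15A1 (0.64 ± 0.09, adjusted p = 0.0011), COL18A1 (0.49 ± 0.14, 0.0288), COL4A4 (0.43 ± 0.09, 0.00642) and COL6A2 (0.41 ± 0.05, 0.000906). The COL18A1 call was lost on leaving out any 24 h array (adjusted p = 0.0613, 0.0805 and 0.0674) or 6 h replicate 1 or 3 (0.0872 and 0.0556), none of its settings exceeding 0.0872. The COL5A1 call was lost without any 6 h array (0.055, 0.0756 and 0.119), 24 h replicate 1 or 3 (0.111 and 0.0982) or PBS replicate 1 or 2 (0.0527 and 0.0565), the highest being 0.119. The mean of the probe sets ended the calls of COL4A4 (0.879) and COL6A2 (0.211). The difference of COL5A2 between the times, -0.17, was not called (adjusted p = 0.0587), nor was that of COL6A1, 0.16 (0.0592), COL4A1, -0.10 (0.314), COL4A2, 0.08 (0.247), or COL6A3, -0.21 (0.383). COL6A3 passed as lower without 24 h replicate 2 (-0.40, adjusted p = 0.0497, in a range over its alternatives of 0.0497 to 0.72). COL5A2 passed as lower with the 50th percentile filter (0.0335), the mean of its probe sets (0.0181) or limma's trend and robust settings (0.0109), in a range of 0.0109 to 0.163. COL6A1 passed as higher with that filter (0.0352), quantile normalization (0.046) or the trend and robust settings (0.0112), in a range of 0.0112 to 0.208.

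The calls were then set side by side over both times, by brightest probe sets. At each time, 8 collagen genes were higher: COL5A3, COL11A2, COL4A1, COL4A2, COL6A1, COL6A2, COL6A3 and COL15A1. COL1A2, COL3A1 and COL12A1 were lower at each. Several of the calls in this paragraph were lost under some alternatives, that of COL12A1 at 6 h in the most, 10 of 21. COL5A2 and COL27A1 were called higher at 6 h only, COL4A4 and COL18A1 higher at 24 h only, and COL1A1 and COL14A1 lower at 24 h only. The other 11 were called at neither time. The time difference itself passed the test for COL27A1, COL4A4, COL18A1, COL1A1 and COL14A1 and not for COL5A2, which passed under 3 of 21 alternatives.

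Genes that modify, fold, process, crosslink, bind or cut collagen were read from lists of genes with such known roles. The lists were chosen with earlier results of these data known, so their counts are descriptive only. Of 13 prolyl and lysyl hydroxylation and glycosylation genes tested, 7 were higher and 1 lower at 24 h, beside the 40.3% of all genes called. P4HA2, a catalytic subunit of prolyl 4-hydroxylase, which makes the triple helix stable, rose from 3289 ± 85.1 in PBS to 7766 ± 463 (means ± SD, n = 3), or by 1.23 on the log2 scale (adjusted p = 1.70e-06). P4HA1 rose by 0.62 and COLGALT1, which adds galactose to hydroxylysine, by 0.46. P3H2, a prolyl 3-hydroxylase, fell by 0.38 on the log2 scale. At 6 h, 3 of the 13 were higher and 3 lower, beside 42.4% of all genes called. P4HA2 (0.62) and COLGALT1 (0.48) were among the higher ones, and P4HA3 was at least 1.56-fold lower, its 6 h arrays lying within the control level.

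Of 9 folding and export genes, 2 were higher and 2 lower at 24 h, a share called near the 40.3% of all genes. SERPINH1 (HSP47), the collagen-specific chaperone, had 5688 ± 476 in PBS, 5667 ± 574 at 6 h and 3440.0 ± 153 at 24 h, and fell by 0.72 at 24 h (adjusted p = 0.000462). SEC24D, a coat subunit used in procollagen export, rose by 0.97, and TRAM2 fell by 0.34. At 6 h none was higher and 3 were lower, beside 15.0% and 27.4% of all genes: KLHL12 (-0.51), MIA3 (-0.38) and TRAM2 (-0.19).

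Of 5 propeptide processing genes tested, 3 were lower at 24 h and none higher, beside 22.8% and 17.5% of all genes. ADAMTS2, which removes the N-propeptides of types I and III, went from 3382 ± 170.0 in PBS to 2246 ± 73.9 at 24 h (-0.59, adjusted p = 0.000109). PCOLCE2 and PCOLCE, enhancers of C-propeptide removal, had log2 fold changes of -0.99 and -0.90 (adjusted p = 6.19e-06 and 0.0123). BMP1, the C-proteinase itself, was not called (0.43, adjusted p = 0.139). At 6 h PCOLCE2 alone was called (-0.26), beside 42.4% of all genes.

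Among 6 crosslinking genes, 3 were higher and 2 lower at 24 h, beside 17.5% and 22.8% of all genes. Transglutaminase 2 (TGM2) rose from 77.7 ± 30.4 in PBS to 283 ± 36.4 at 6 h and 695 ± 15.6 at 24 h, with log2 fold changes of 1.73 and 2.98. Of the lysyl oxidases, LOX (0.69) and LOXL2 (0.73) rose and LOXL1 (-1.02) and LOXL3 (-0.40) fell at 24 h. At 6 h TGM2 and LOXL2 (0.18) were higher and none was lower, beside 15.0% and 27.4% of all genes.

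Of 10 fibril-associated proteoglycans and organisers tested, 4 were lower and 1 higher at 24 h, beside 22.8% and 17.5% of all genes. THBS1 (-1.69), lumican (LUM, -1.27) and decorin (DCN, -0.92), the last 2 being small proteoglycans that coat fibrils, had the largest falls. Lumican went from 5026 ± 74.1 in PBS to 4059 ± 347 at 6 h and 2076 ± 133 at 24 h. SPARC, a collagen-binding glycoprotein, fell by 0.52, and fibronectin (FN1), on which fibrils are laid down, rose by 0.71. At 6 h FN1 was higher (0.52) and THBS2 (-0.91) and LUM (-0.31) were lower, beside 15.0% and 27.4% of all genes.

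Among 9 collagen receptors, 3 were higher and 2 lower at 24 h, where 40.3% of all genes were called. ITGA2, the alpha subunit of the collagen-binding integrin α2β1, had a log2 fold change of 3.12 at 6 h and 6.20 at 24 h, CD44 of 1.08 and 1.46, and the inhibitory receptor LAIR1 of -1.08 and -1.06. ITGA2 lay above the control level on 2 of 3 PBS arrays. DDR2, a receptor kinase for fibrillar collagen, fell at both times (-0.60 and -0.70), and ITGA1 rose at 24 h (0.53).

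Of 7 collagen-degrading enzyme genes tested, 5 were higher and 1 lower at 24 h, beside 17.5% and 22.8% of all genes. MMP1, the interstitial collagenase that cuts types I and III, went from 25.01 ± 4.10 in PBS, within the control level, to 211 ± 4.44 at 6 h and 4663 ± 81.2 at 24 h, at least 3.49-fold and 72.1-fold higher. MMP9 (3.25), FAP (1.41), MMP8 (1.03) and MMP14 (0.47) also rose at 24 h, and the gelatinase MMP2 fell by 0.50. At 6 h MMP1, MMP9 (0.91) and FAP (0.78) were higher and MMP2 (-0.23) lower, beside 15.0% and 27.4% of all genes.

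Of 11 basement membrane partner genes, 4 were higher and 2 lower at 24 h, where 40.3% of all genes were called, with LAMB1 (1.03), PXDN (0.63) and LAMB2 (-0.51) changing most. PXDN encodes peroxidasin, which crosslinks type IV. At 6 h, 3 were higher and 1 lower, beside 15.0% and 27.4%: LAMA4 (0.61), LAMB1 (0.33), LAMC1 (0.19) and AGRN (-0.30).

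Of 17 genes that control collagen transcription, 11 were higher and 1 lower at 24 h, beside 17.5% and 22.8% of all genes, and 10 higher and 2 lower at 6 h, beside 15.0% and 27.4%. PRRX1, a mesenchymal homeobox factor, rose by 1.22 at 6 h and 2.66 at 24 h. TGFB2 (1.67), TGFBR1 (1.21) and SMAD3 (1.18) of the TGF-β pathway, a known inducer of type I collagen, rose at 24 h, as did the inhibitory SMAD7 (0.65). TWIST1 was lower at both times (-0.21 and -0.17). LARP6, which binds a stem-loop of the type I and III mRNAs, rose by 0.33 at 24 h (adjusted p = 0.00704).

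**Figure D5:**
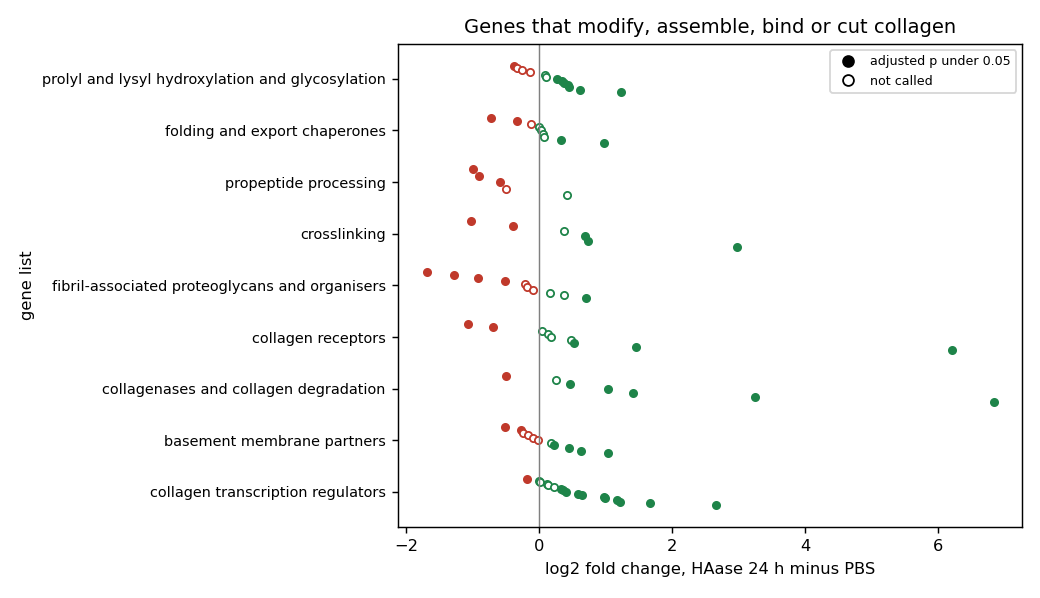
Log2 fold change at 24 h of hyaluronidase against PBS (horizontal axis) of each tested gene in 9 lists of genes that modify, fold, process, crosslink, bind, cut or control collagen; green points are above 0, red below, and filled points have an adjusted p under 0.05 (n = 3 arrays per group). MMP1 and ITGA2 are the points at 6.84 and 6.20, where MMP1 is a fitted value from a PBS level within the control probe sets, and no filled point of the propeptide processing list lies above 0.

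Between 24 h and 6 h, the lists divided as follows, where 19.7% of all genes were higher and 13.3% lower. The hydroxylation list had 7 higher and 1 lower, folding and export 4 and 1, crosslinking 3 and 1, degradation 5 and 1, receptors 3 and none, basement membrane partners 3 and 3, and the transcription regulators 7 and 3. Propeptide processing had none higher and 3 lower, led by ADAMTS2 (-0.73), PCOLCE2 (-0.72) and PCOLCE (-0.72), and the proteoglycans 2 higher and 4 lower, led by THBS1 (-1.64) and LUM (-0.96). The largest rises were those of MMP1 (4.37), ITGA2 (3.09), MMP9 (2.33) and PRRX1 (1.44). SERPINH1 fell by 0.71 and LOXL1 by 0.79 on the log2 scale.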

How the data were processed

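Each deposited value is the intensity of 1 probe set on a linear scale, taken by the authors from CHP files of the Affymetrix software, as the design text of the series states. Which algorithm summarised the probes is not given in the sources used here. Each array had been scaled: the mean after trimming 2% at each end was 500.07 to 500.08 on all 9 arrays, whose medians ran from 55.8 to 61.3, and no further normalization was applied. The number of arrays limits the precision.

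Gene symbols came from the platform annotation. The 43 collagen gene IDs were all found in a RefSeq table (GRCh38.p14), and 0 symbols changed. The array files name no genome build, and the only coordinates given are those of the upstream windows, which came from RefSeq (GRCh38.p14).

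Tests used the lmFit and eBayes functions of limma 3.58.1 (R 4.3.3) on log2(signal + 16) of all 9 arrays, with 1 mean per group, for 13842 genes above the 30th percentile of mean log2 signal, with Benjamini-Hochberg adjustment, and likewise for 28764 probe sets. Fold changes are on the log2(signal + 16) scale and understate those of dim genes. A group wholly at or below the brightest of 27 Bacillus subtilis control probe sets has only a bound, written "at least". A two-sided permutation of 3 arrays against 3 cannot go below 0.1.

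The members, classes and lists were chosen with earlier results of these data known. Every collagen gene is accounted for. Values per array are given for the up to 8 largest called, non-overlapping changes per direction against PBS (4 between times) and for COL1A1, COL1A2, COL3A1, COL4A1, COL4A2, COL5A1, COL5A2, COL6A1 to COL6A3 and COL12A1, and up to 3 genes per list and comparison are named. Further genes and probe sets named were chosen after their values were seen. Up to 21 alternatives per result were run.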

Additional observations from a re-analysis of the deposited data

Results flagged for a closer look

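For 11 collagen genes the 24 h and 6 h hyaluronidase arrays differed by the test of that difference (limma, adjusted p at most 0.0391). With no PBS arrays at 6 h, time of treatment and time of harvest cannot be told apart in this difference. The 24 h minus 6 h difference on the log2 scale was -1.99 for COL14A1, -1.68 for COL1A2, -1.58 for COL1A1, -1.32 for COL3A1, -1.20 for COL27A1, -0.67 for COL12A1 and -0.21 for COL5A1. It was 0.64 for COL15A1, 0.49 for COL18A1, 0.43 for COL4A4 and 0.41 for COL6A2. COL27A1 is the one among them that was above PBS at 6 h (1.14) and near it at 24 h (-0.06). The COL14A1 value is a fitted one, its 24 h arrays lying within the control level.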

How the results depend on the processing

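Of 39 calls on single collagen genes, 27 held under each alternative run, 12 were lost under at least 1, and none turned its sign. Of 1698 gene values, 1565 kept their direction and their side of the threshold, 60 fell short of it, 47 passed it and 26 turned, all of them uncalled. With the mean of probe sets these were COL8A2 at 24 h (-0.085) and COL18A1 (-0.054), COL22A1 (-0.081) and COL4A4 (0.12) at 6 h. Other settings turned COL27A1 at 24 h (quantile normalization, 0.012), COL8A2 at 24 h (equal medians, -0.0027) and COL11A2 between times (pseudocount 64, 0.00040). The rest turned when 1 array was left out, over which the values ran at 24 h from -0.18 to 0.050 (COL27A1), -0.22 to 0.14 (COL8A2) and -0.58 to 0.21 (COL20A1), at 6 h from -0.13 to 0.23 (COL13A1) and -0.27 to 0.13 (COL4A3), and between times from -0.091 to 0.070 (COL11A2), -0.090 to 0.27 (COL10A1), -0.044 to 0.18 (COL9A2) and -0.14 to 0.39 (COL7A1).

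The count of genes lower at 6 h was 1, not 3, with equal array medians. Class medians also moved. At 24 h that of the other genes was 0.53 with no filter and 0.81 with a filter at the 50th percentile, without _x_at probe sets or by the highest linear mean (an alternative added after seeing the data), and the FACIT median was -0.84 with that filter. With 1 array left out they ran from 0.50 to 0.72 (other) and -0.17 to 0.30 (FACIT). At 6 h a pseudocount of 64 gave 0.086 (basement membrane), 0.21 (FACIT) and 0.25 (other), no filter -0.11 (fibrillar) and 0.22 (other), the 50th percentile filter -0.17 (FACIT), quantile normalization 0.13 (basement membrane) and the mean of probe sets 0.11 (FACIT). With 1 array left out they ran from 0.040 to 0.22 (basement membrane), 0.22 to 0.42 (FACIT) and 0.26 to 0.39 (other). Between times a pseudocount of 64 gave 0.16 (basement membrane), -0.14 (FACIT) and 0.28 (other), no filter -0.17 (fibrillar), the 50th percentile filter -1.20 (fibrillar) and -0.67 (FACIT), and the mean of probe sets -0.43 (fibrillar), 0.098 (FACIT) and 0.23 (other). With 1 array left out they ran from 0.072 to 0.27 (basement membrane), -0.36 to -0.15 (FACIT) and 0.25 to 0.42 (other). The causes were not tested, beyond that a filter changes which genes enter.

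No pairing by replicate number was seen in the values: the deviations of same-numbered arrays correlated at -0.05 to 0.04, with 0 of 9 pairs over 0.1. These correlations cannot show whether same-numbered samples were handled as sets. With the replicate block, 3 calls were lost (COL4A1 at 24 h, COL12A1 at 6 h and COL5A1 between times) and 0 gained, leaving 9 higher and 5 lower at 24 h, 10 and 2 at 6 h, and 4 and 6 between times.

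With 3 arrays a group, dim genes are limited by their signal over background: 7 tested collagen genes had arrays within the control level.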
